A study of Mus musculus with 12 samples.

Results

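Immediate-early genes were described across mammary fat pads of mice given 5 mg/kg or 1 mg/kg folic acid. They are the 10 genes Fos, Fosb, Jun, Junb, Atf3, Egr1, Nr4a1, Ier2, Dusp1 and Zfp36, picked by name from the 55487 Ensembl gene IDs of the count files. The rule uses no measured value, but the list was drawn up with earlier results of these data known. All 10 matched an ID and passed the filter on low counts, which left 18647 genes to be tested. The samples were 12 mammary gland libraries of female C57BL/6 mice, an inbred laboratory strain, all at postnatal day 84 and 4 weeks after the supplementation. The group of 6 libraries at 5 mg/kg was set against the group of 6 at 1 mg/kg, and no other treatment or genotype is named in the labels. Per the labels' protocols the right thoracic fat pad was cut out whole and snap frozen, so fat, epithelium, muscle, vessels and lymphoid tissue share each library. Separate animals are not stated, so p-values measure the spread between these samples.

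Immediate-early genes are switched on within minutes of a stimulus and need no new protein for it. Kinases of the MAP kinase pathway and protein kinase A act on factors already bound at their promoters, such as SRF with its ETS partners and CREB. Their RNA is short-lived, and several of their products shut the response off again. Cutting, warming or delay before freezing is known to raise them in many tissues. The labels give no time of dissection, delay to freezing or order of collection, so tissue handling was not tested here.

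Gene-assigned reads numbered about 48200000 to 75300000 per library, and the mitochondrial rRNA genes took 39.2% to 59.5% of them. The pads differed in their makeup. Summed over 10 B cell markers, none of them at 0 in any library, the level ran from 5.35 to 662 CPM (reads of a gene per 1000000 reads of the library, its size scaled by the TMM method of edgeR) at 5 mg/kg and from 4.06 to 887 CPM in 1 mg/kg libraries. The 10 skeletal muscle markers, none at 0, summed to 15845 to 48073 CPM in 5 mg/kg libraries and to 16226 to 75224 CPM in 1 mg/kg libraries. The 10 luminal epithelium markers, which define the labelled tissue, were present in each library, at 300.2 to 856 CPM in 5 mg/kg libraries and 180.1 to 1276 CPM in 1 mg/kg libraries. In such bulk samples fewer cells of a type and less RNA per cell cannot be told apart.

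No immediate-early gene differed between the doses past the threshold of an adjusted p of 0.05. By edgeR's quasi-likelihood test 0 of 10 passed, beside 0% of all tested genes (0 of 18647, smallest adjusted p = 0.943). DESeq2 and limma-voom also gave 0. At an unadjusted p under 0.05 there were 0 of 10 by edgeR, DESeq2 and limma-voom alike, beside 1.93% of all genes by edgeR. The levels of the groups overlapped for all 10, and over all genes 0.0429% had groups that did not overlap. Log2 fold changes, positive when higher at 5 mg/kg, were above 0 for 5 of 10 genes and below 0 for 5 of 10, beside 47.2% and 52.8% of all tested genes. Their median was -0.046, and that of all tested genes was -0.018. With library size as the only scaling, that second median became -0.16 and 1 of the 10, Jun, stood above 0. The distance from a log2 fold change to either end of its 95% interval had a median of 0.61 over the 10 genes, from 0.33 for Jun to 0.99 for Nr4a1, and 0.53 over all tested genes. These are unadjusted intervals, and passing over all genes needs a larger difference. At 5 mg/kg B cell and T cell markers were lower for 10 of 10 each. Fibroblast markers were higher for 10 of 10, adipocyte and brown fat markers for 9 of 10 each, and muscle markers for 3 of 10. An unadjusted p under 0.05 was found for 4 of 10 brown fat and 3 of 4 tested keratinocyte markers, but 0 of 121 markers passed. The part of makeup in the fold changes of the 10 genes was not tested beyond the B cell and muscle levels as covariates.

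**Figure D1:**
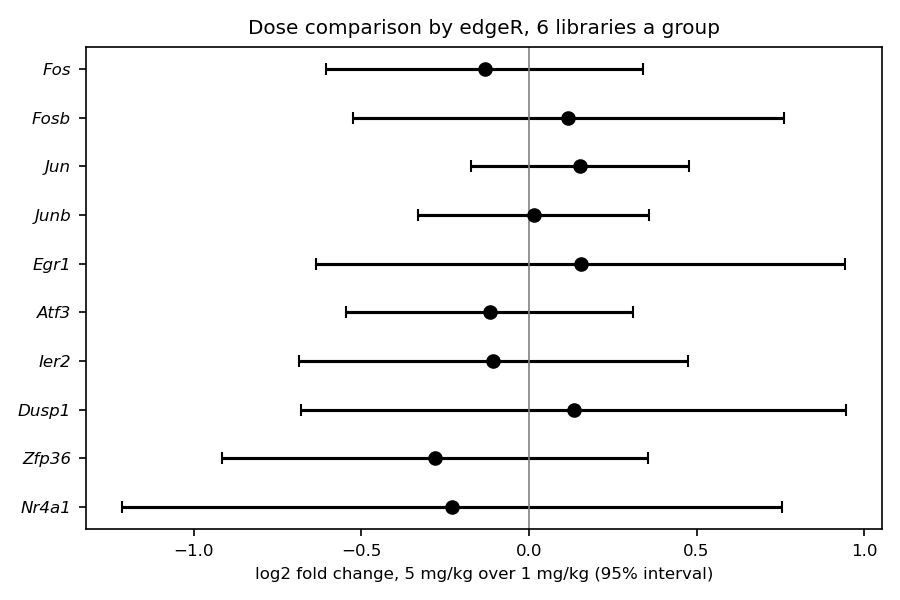
Log2 fold change of each immediate-early gene, 5 mg/kg over 1 mg/kg, with its 95% interval from edgeR (6 libraries a group). Each interval holds 0, from the narrow one of Jun to the widest of them, that of Nr4a1.

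The AP-1 proteins pair through leucine zippers, Fos proteins with Jun proteins, and bind AP-1 sites. Fos, which encodes the c-Fos subunit (ENSMUSG00000021250, GRCm38 chromosome 12, 85473890 to 85477273, plus strand), ran from 4.67 over a median of 6.36 to 8.72 CPM in 5 mg/kg libraries. At 1 mg/kg it ran from 5.20 over 6.03 to 11.3 CPM. Replicate 2 was the highest library of each group, a shared number that pairs nothing. The log2 fold change was -0.13 ± 0.22 (SE), with an interval from -0.60 to 0.34 (edgeR adjusted p = 0.943), and it turned to 0.070 without replicate 2 at 1 mg/kg. Fosb, a second Fos protein, was the scarcest of the 10, with 18 to 82 reads in a library. It ran from 0.372 over 0.818 to 1.21 CPM in 5 mg/kg libraries and from 0.532 over 0.676 to 1.13 CPM in 1 mg/kg libraries, and the log2 fold change was 0.12 ± 0.30. Replicate 4 at 5 mg/kg was the lowest for Fosb.

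Jun, the c-Jun subunit, was the steadiest of the 10 genes. It ran from 17.4 over 21.1 to 27.0 CPM in 5 mg/kg libraries and from 13.7 over 20.3 to 22.8 CPM in 1 mg/kg libraries, with a log2 fold change of 0.15 ± 0.15 and an interval from -0.17 to 0.48 (edgeR adjusted p = 0.943). Replicate 5 at 5 mg/kg was its highest library and replicate 1 at 1 mg/kg its lowest. Junb, a Jun protein with a weaker activating domain, ran from 10.9 over 12.6 to 15.8 CPM in 5 mg/kg libraries and from 7.87 over 13.5 to 15.3 CPM in 1 mg/kg libraries. Its log2 fold change, 0.013 ± 0.16, was the one nearest to 0, and the interval ran from -0.33 to 0.36. Replicate 3 had the highest Junb value at 5 mg/kg, 15.8 CPM, and the lowest at 1 mg/kg, 7.87 CPM. Atf3, a stress-induced factor of the ATF family that also pairs with Jun proteins, ran from 2.05 over 2.78 to 4.19 CPM in 5 mg/kg libraries and from 2.84 over 3.15 to 3.86 CPM in 1 mg/kg libraries. The 1 mg/kg libraries lay inside the range of the 5 mg/kg libraries, and the log2 fold change was -0.12 ± 0.20.

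Egr1 encodes a zinc finger factor that binds GC-rich sites. It ran from 3.81 over 6.21 to 15.5 CPM in 5 mg/kg libraries and from 4.60 over 6.92 to 11.5 CPM in 1 mg/kg libraries. Replicates 2 and 5 at 5 mg/kg, with 15.5 and 13.1 CPM, and replicate 4 at 1 mg/kg, with 11.5 CPM, were the highest. The log2 fold change was 0.15 ± 0.36 with an interval from -0.64 to 0.94, and it turned to -0.12 without replicate 2 at 5 mg/kg. Nr4a1 (ENSMUSG00000023034, GRCm38 chromosome 15, 101254269 to 101274795, plus strand), an orphan nuclear receptor also called Nur77, varied most. It ran from 9.27 over 14.7 to 26.9 CPM in 5 mg/kg libraries and from 7.05 over 12.8 to 37.5 CPM in 1 mg/kg libraries, a 5.31-fold span over the 12 libraries. Replicates 5 and 3 at 1 mg/kg were its highest, at 37.5 and 34.5 CPM, and replicate 4 of that group its lowest. Its log2 fold change of -0.23 ± 0.45 had an interval from -1.21 to 0.76, and without replicate 5 or 3 at 1 mg/kg it turned to 0.083 or 0.013.

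Dusp1 and Zfp36 act to end the response. Dusp1 (ENSMUSG00000024190, GRCm38 chromosome 17, 26505590 to 26562128, minus strand) is a nuclear phosphatase that inactivates MAP kinases. It ran from 10.2 over 19.4 to 40.4 CPM in 5 mg/kg libraries and from 9.77 over 16.4 to 28.6 CPM in 1 mg/kg libraries. Replicate 5 at 5 mg/kg stood highest, at 40.4 CPM, and without it the log2 fold change turned from 0.13 ± 0.37 to -0.17. Zfp36, or tristetraprolin, binds AU-rich elements of short-lived RNAs and speeds their decay. It ran from 11.9 over 19.7 to 35.5 CPM in 5 mg/kg libraries and from 14.5 over 27.7 to 37.8 CPM in 1 mg/kg libraries. Its log2 fold change of -0.28 ± 0.29 was the largest in size of the 10 and had an interval from -0.92 to 0.36 (edgeR adjusted p = 0.943). Ier2, a small nuclear protein of the same early response, ran from 2.98 over 3.88 to 6.19 CPM in 5 mg/kg libraries and from 2.64 over 4.62 to 6.85 CPM in 1 mg/kg libraries, with a log2 fold change of -0.11 ± 0.27. Without replicate 6 at 1 mg/kg, its highest library, the value turned to 0.040.

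**Figure D2:**
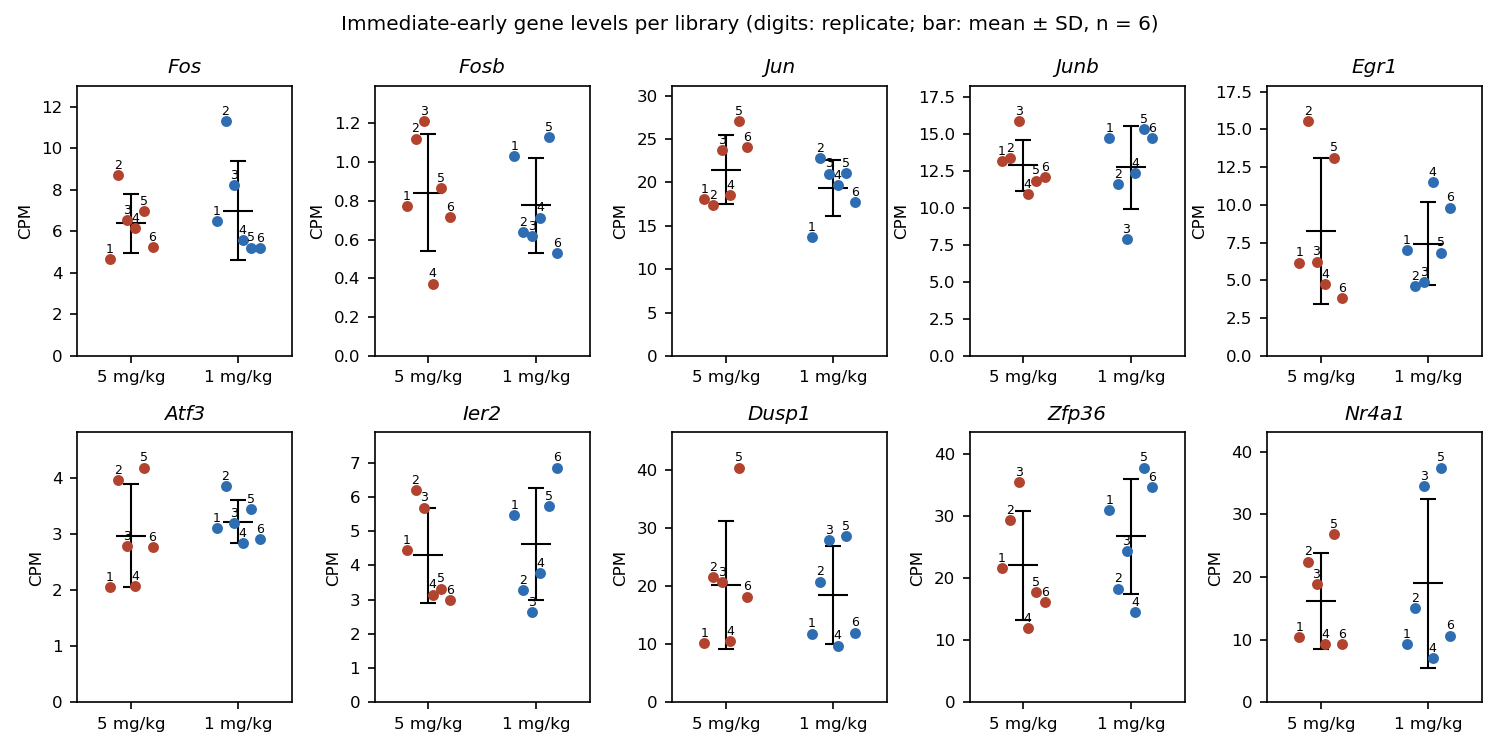
CPM of each immediate-early gene in each library, 5 mg/kg left and 1 mg/kg right. Points are libraries with their replicate numbers, and bars give the mean and SD of 6 libraries. The groups overlap in each panel, and the spread within a group is wide for Nr4a1, Dusp1 and Egr1 and narrow for Jun and Junb.

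Levels per kilobase of exon put the genes in order. The length is that of all annotated exons of a gene merged, from 1522 bases for Ier2 to 6243 for Fosb. Bases of models that are not used in this tissue lower a value, so the order depends in part on the annotation. Zfp36 was at 7.04 ± 2.59 CPM per kilobase (mean ± SD, n = 12), Jun at 6.40 ± 1.14, Dusp1 at 5.85 ± 2.84, Junb at 5.56 ± 0.963 and Nr4a1 at 5.01 ± 2.998. These 5 did not separate beyond their spread, each standing above the next in 6 to 8 of 12 libraries. Ier2 at 2.93 ± 0.955, Fos at 2.84 ± 0.811, Egr1 at 1.75 ± 0.841 and Atf3 at 1.44 ± 0.316 CPM per kilobase came after them. Neighbours among these also overlapped, with Ier2 above Fos in 7 of 12 libraries and Egr1 above Atf3 in 8, while Nr4a1 was above Ier2 in 9 and Fos above Egr1 in 11. Fosb was the lowest, at 0.130 ± 0.0423 CPM per kilobase, below Atf3 in 12 of 12 libraries. Part of the exon bases is shared with a gene on the other strand for Jun (7.28%, Junos), Junb (7.52%, Prdx2), Zfp36 (3.60%, Gm44710) and Dusp1 (0.332%, Ergic1). Reads there are uncertain because the strand setting is not given.

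The standard deviation of log2 CPM over the 12 libraries was 0.82 for Nr4a1, 0.68 for Dusp1, 0.65 for Egr1 and 0.56 for Zfp36, against 0.26 for Jun and 0.27 for Junb. The median over all tested genes was 0.42. Nr4a1 lay at percentile 86.4 of all tested genes by this measure, Jun at 26.8 and Fos at 43.2.

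Over the 45 pairs of genes the Pearson correlation of log2 CPM across the 12 libraries ran from -0.48 to 0.89, with a median of 0.29, and 34 pairs were positive and 11 negative. Regressing out the B cell level left 35 positive, the muscle level 40, and both levels 42. The correlation of a single member with all tested genes had a median between -0.11 and 0.028. Of the 45 pairs 2 passed after Benjamini-Hochberg adjustment over the pairs, by Pearson and by Spearman correlation. One joined Dusp1 with Nr4a1 and the other Junb with Ier2.

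**Figure D3:**
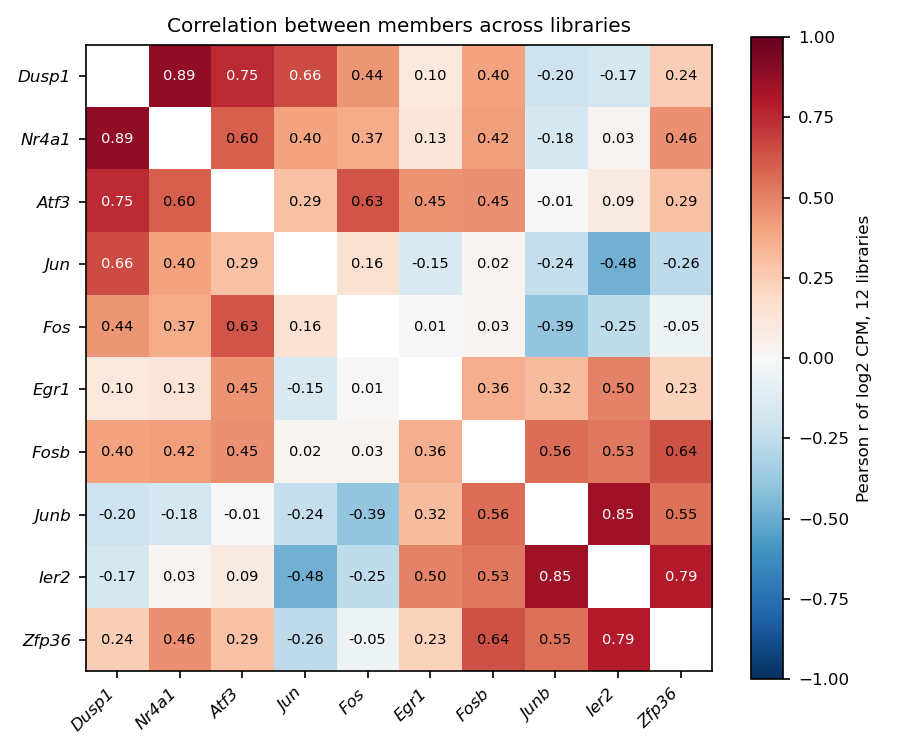
Pearson correlation of log2 CPM for each pair of immediate-early genes over 12 libraries. Rows were ordered by hand. The highest values join Dusp1 with Nr4a1 (0.89), Junb with Ier2 (0.85), Ier2 with Zfp36 (0.79) and Atf3 with Dusp1 (0.75). Atf3 with Nr4a1 (0.60) and Junb with Zfp36 (0.55) lie below Jun with Dusp1 (0.66) and Fosb with Zfp36 (0.64), so no separate groups of genes stand out. Jun and Ier2 have the lowest value, -0.48.

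Dusp1 and Nr4a1 had r = 0.89 (permutation p = 0.000370, adjusted p = 0.00832) and rho = 0.92 (permutation adjusted p = 0.00450). Within the groups r was 0.84 in 5 mg/kg libraries and 0.97 in 1 mg/kg libraries (n = 6 each, unadjusted exact permutation p = 0.0208 and 0.00139). Without the 2 libraries farthest from the median of Dusp1 r was 0.88. For comparison, the 95th percentile of the correlation with all tested genes was 0.52 for Dusp1 and 0.55 for Nr4a1. Replicate 5 at 5 mg/kg and replicates 5 and 3 at 1 mg/kg held the 3 highest values of both genes. In 5 libraries Dusp1 was at 9.77 to 12.002 CPM with 7.05 to 10.6 CPM of Nr4a1, and in the other 7 it was at 18.2 CPM or more with 9.30 to 37.5 CPM of Nr4a1. The split was made at the widest gap in the log2 values of Dusp1 itself. Within those 7 libraries r was 0.73 (exact permutation p = 0.0587), which did not pass. Such a split is taken from the data and narrows the range of Dusp1, so this value cannot decide whether the relation holds there. Atf3 followed Dusp1 at r = 0.75 and rho = 0.78, but the pair missed the threshold (permutation adjusted p = 0.0539 and 0.0511).

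The 3 libraries highest in Dusp1 and Nr4a1 included those with the 2 highest skeletal muscle sums. Summed muscle markers were at 48073 CPM in replicate 5 at 5 mg/kg and at 75224 and 35906 CPM in replicates 3 and 5 at 1 mg/kg. Replicate 4 at 5 mg/kg had 36968 CPM of them, with 10.6 CPM of Dusp1 and 9.27 CPM of Nr4a1, and replicate 2 at 1 mg/kg had 45465 CPM, with 20.8 CPM of Dusp1 and 15.03 CPM of Nr4a1. The level of the muscle list had r = 0.59 with each gene (rho = 0.52 for Dusp1 and 0.50 for Nr4a1), and neither passed among 190 relations of members with other measures (permutation adjusted p = 0.220 for both r). Without the 2 libraries farthest from the muscle median r was 0.49 for Dusp1 and 0.44 for Nr4a1. Within the groups Dusp1 had r = 0.20 in 5 mg/kg libraries and 0.88 in 1 mg/kg libraries, and Nr4a1 had 0.045 and 0.82. Muscle was not tied to these genes alone. Its level had r = -0.71 with Ier2, -0.68 with Junb and 0.60 with Jun, all larger in size, and none passed (permutation adjusted p = 0.134, 0.134 and 0.219). Without the 2 farthest libraries these were -0.50, -0.42 and 0.67. The remaining members lay between -0.34 and 0.29. After the muscle level was regressed out, Dusp1 and Nr4a1 still had r = 0.83, and after the B cell level 0.93.

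Junb and Ier2 had r = 0.85 (permutation p = 0.000130, adjusted p = 0.00585) and rho = 0.87 (permutation adjusted p = 0.0101). Within the groups r was 0.82 in 5 mg/kg libraries and 0.91 in 1 mg/kg libraries (n = 6 each, unadjusted exact permutation p = 0.0347 and 0.00417). Without the 2 libraries farthest from the median of Junb r was 0.90. The 95th percentile of the correlation with all tested genes was 0.72 for Junb, 0.88 for Ier2 and 0.90 for Zfp36, so the value of the pair lay above it for Junb and below it for Ier2. Zfp36 followed Ier2 at r = 0.79 and rho = 0.71 and missed the threshold (permutation adjusted p = 0.0539 and 0.104).

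Ier2 and Junb were highest in the 6 libraries richest in B cell RNA. Replicates 1, 2 and 3 at 5 mg/kg and replicates 1, 5 and 6 at 1 mg/kg had 363 to 887 CPM of summed B cell markers, and the other 6 libraries 4.06 to 119 CPM. The same 6 libraries held the 6 highest values of Ier2, 4.45 to 6.85 CPM against 2.64 to 3.78 CPM elsewhere, and of Junb, 13.1 to 15.8 against 7.87 to 12.3 CPM. That order of libraries was shared by 15.8% of all tested genes, so 2 of 10 members is near the background. Replicate 3 at 1 mg/kg, at 119 CPM of B cell markers, stood well above the remaining 5 libraries, and it had the lowest Ier2 and the lowest Junb of the 12. It was also the library with the most muscle, at 75224 CPM of summed markers, and the muscle level had r = -0.71 with Ier2 and -0.68 with Junb. Fosb and Zfp36 had 5 of their 6 highest values in the 6 richest libraries, and a share of at least 5 was found for 4 of 10 members and 27.5% of all tested genes. Egr1 had 4, Dusp1, Nr4a1, Fos and Atf3 had 3, and Jun had 2. B cell levels fell into separate clusters of libraries, so no pooled correlation with them is given. Residuals after the B cell level, here and above, come from a straight line through these clusters and carry the same limit. After the B cell level was regressed out, r was 0.85 for Junb with Ier2 (permutation adjusted p = 0.121) and 0.18 for Ier2 with Zfp36. After the muscle level it was 0.70 for Junb with Ier2 (permutation adjusted p = 0.0877) and 0.83 for Ier2 with Zfp36. Of the 190 relations 7 passed by Pearson correlation, 5 with Zfp36 and 2 with Ier2, the 2 members with the highest of these percentiles. Zfp36 followed the level of the wider list of immediate-early genes (r = 0.94, rho = 0.92, permutation adjusted p = 0.00190 and 0.0114), with r = 0.89 without the 2 libraries farthest from that list's median and 0.96 in 5 mg/kg libraries and 0.91 in 1 mg/kg libraries. The level of that wider list was itself 3.19 to 3.70 log2 CPM in the 6 libraries richest in B cell RNA. In the other 6 it was 2.83 to 3.59, highest in replicate 3 at 1 mg/kg. Zfp36 was negatively related to the list of vascular smooth muscle and pericyte genes (r = -0.91, rho = -0.90, permutation adjusted p = 0.0104 and 0.0180), with r = -0.90 without the 2 libraries farthest from the median of that list and r = -0.91 in 5 mg/kg libraries and -0.92 in 1 mg/kg libraries. Ier2 had r = -0.88 and rho = -0.77 with the same vascular list (permutation adjusted p = 0.0171 and 0.0719), r = -0.83 without the 2 farthest libraries, and -0.93 in 5 mg/kg libraries and -0.89 in 1 mg/kg libraries. Zfp36 passed by r but not by rho with the adipocyte list (r = -0.81, permutation adjusted p = 0.0393 and 0.0678) and the neutrophil list (r = 0.83, permutation adjusted p = 0.0426 and 0.0678). Without the 2 farthest libraries these were -0.80 and 0.81, with -0.81 and 0.79 in 5 mg/kg libraries and -0.90 and 0.88 in 1 mg/kg libraries. These lists too divided with the B cell markers. In the 6 libraries richest in B cell RNA the vascular level was 3.84 to 4.41 log2 CPM, against 4.57 to 4.80 in the other 6. The neutrophil level was 0.92 to 2.27 against -1.08 to 0.40, and the adipocyte level 7.38 to 8.54 against 8.15 to 9.40. No percentile over all tested genes is given for negative correlations. The 10 vascular markers, none at 0, summed to 578 to 1301 CPM in 5 mg/kg libraries and 445 to 1498 CPM in 1 mg/kg libraries. Much of that sum was Des, which skeletal muscle also expresses, at 241 to 811 CPM in 5 mg/kg libraries and 178 to 1032 CPM in 1 mg/kg libraries, whereas the level used in the correlations is a mean of log2 values that weighs each gene alike. The 10 adipocyte markers, none at 0, summed to 7846 to 11976 CPM and 3988 to 15177 CPM in the same order of doses. The 10 neutrophil markers, of which Ly6g, Camp and Ngp were at 0 in some libraries, summed to 19.4 to 82.5 CPM and 35.5 to 80.4 CPM. Ltf made up most of the highest neutrophil sums, with 73.0 of 82.5 CPM in replicate 4 at 5 mg/kg, where Zfp36 was lowest and S100a8 was at 0.145 CPM. The neutrophil sum therefore does not run with the list level behind r = 0.83. Beyond the residuals given, the part of cell makeup in these values was not tested.

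**Figure D4:**
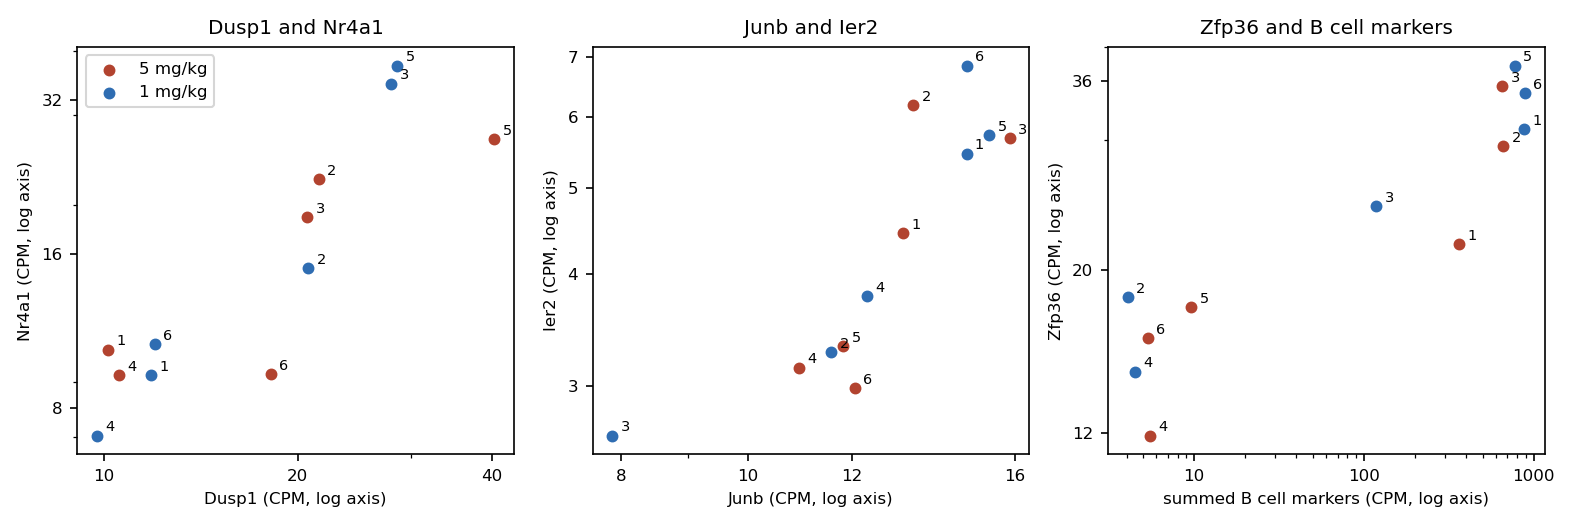
Dusp1 against Nr4a1, Junb against Ier2, and summed B cell markers against Zfp36 in CPM, all on log axes, 1 point a library with its replicate number. Libraries of both doses lie along each relation, and in the panel of Zfp36 the libraries rich in B cell markers stand apart from those with 9.61 CPM or less.

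Promoter sequence is shown for 4 genes of these relations and for Fos, as the classic member. Windows of 250 bases up to the base before the start site came from RefSeq (GRCm38.p6), which gave a promoter for 8 of the 10 genes, all but Egr1 and Ier2. Capitals mark the CRE core TGACG, the full CRE TGACGTCA, which holds that core on both strands, the 8-base AP-1 variant TGACATCA and the CArG box bound by SRF, on either strand.
Dusp1 (chr17:26508473-26508722, minus strand): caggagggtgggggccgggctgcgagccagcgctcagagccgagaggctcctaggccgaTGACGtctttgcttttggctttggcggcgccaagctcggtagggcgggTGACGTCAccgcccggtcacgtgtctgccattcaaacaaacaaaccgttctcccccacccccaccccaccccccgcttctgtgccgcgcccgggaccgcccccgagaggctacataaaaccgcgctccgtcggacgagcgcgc
Nr4a1 (chr15:101266596-101266845, plus strand): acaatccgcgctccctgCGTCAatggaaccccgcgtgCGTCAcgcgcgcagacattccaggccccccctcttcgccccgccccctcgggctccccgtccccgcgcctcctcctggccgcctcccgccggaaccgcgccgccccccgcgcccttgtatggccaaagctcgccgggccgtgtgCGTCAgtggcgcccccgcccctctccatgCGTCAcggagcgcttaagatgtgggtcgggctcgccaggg
Junb (chr8:84978749-84978998, minus strand): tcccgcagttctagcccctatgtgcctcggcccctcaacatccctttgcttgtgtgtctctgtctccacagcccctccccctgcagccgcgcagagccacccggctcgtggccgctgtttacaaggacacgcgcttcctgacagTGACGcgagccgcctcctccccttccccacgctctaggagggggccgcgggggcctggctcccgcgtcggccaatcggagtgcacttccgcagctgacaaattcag
Zfp36 (chr7:28379229-28379478, minus strand): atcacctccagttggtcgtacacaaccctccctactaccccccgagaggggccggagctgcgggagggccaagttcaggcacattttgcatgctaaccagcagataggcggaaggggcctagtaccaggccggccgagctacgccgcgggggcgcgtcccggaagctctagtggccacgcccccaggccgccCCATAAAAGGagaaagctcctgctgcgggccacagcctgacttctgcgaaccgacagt
Fos (chr12:85473640-85473889, plus strand): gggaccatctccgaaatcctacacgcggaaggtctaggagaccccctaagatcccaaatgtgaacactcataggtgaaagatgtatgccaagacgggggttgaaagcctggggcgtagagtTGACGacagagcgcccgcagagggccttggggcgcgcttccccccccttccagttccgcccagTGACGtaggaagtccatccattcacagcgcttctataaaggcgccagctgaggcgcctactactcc

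The core TGACG, or its reverse complement, was in the windows of 6 of 8 members, among them Dusp1, Nr4a1, Junb and Fos, and in 17.8% of the windows of all 32851 promoters. Dusp1 had 3 matches, of which 2 form its full CRE, with the far end 143 bases before the start, and 1.55% of all windows held a full CRE. Nr4a1 had 4 matches and Fos 2. Zfp36 had the one CArG box among the 8 windows, with its far end 58 bases before the start, a motif in 1.47% of all windows. Jun had TGACATCA (2.93% of all windows), and no window of the 8 had the AP-1 site TGANTCA, which 6.75% of all windows held. The EGR site GCGGGGGCG was in the windows of Fosb, Zfp36 and Nr4a1 and in 2.57% of all. These are letter matches and were not measured as binding. Bases farther upstream than 250 were not searched, so a motif absent from a window may lie beyond it.

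No library was high for all 10 genes. Replicate 5 at 1 mg/kg was among the 3 highest libraries for 6 of 10 genes, and replicates 2 and 5 at 5 mg/kg for 5 each. Replicate 4 at 5 mg/kg was among the 3 lowest for 8 of 10 and among the 3 highest for none, and its mean log2 CPM over the 10 genes, 2.42, was the lowest of the 12. The highest means were 3.36 and 3.28 in replicates 2 and 5 at 5 mg/kg and 3.34 in replicate 5 at 1 mg/kg. Replicate 4 at 5 mg/kg had 7.05% of its reads outside genes, against 5.58% to 20.8% in its group and 8.34% to 26.6% at 1 mg/kg, and its depth lay inside the range of the others. Its 10 brown fat markers summed to 1392 CPM, near the 1421 CPM of replicate 5, which was high for 5 members. Its 8 keratinocyte markers summed to 113 CPM, with at most 19.4 CPM of keratinocyte markers in the other libraries of its dose and at most 2.94 CPM at 1 mg/kg. The part of these cells in its low values was not tested.

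**Figure D5:**
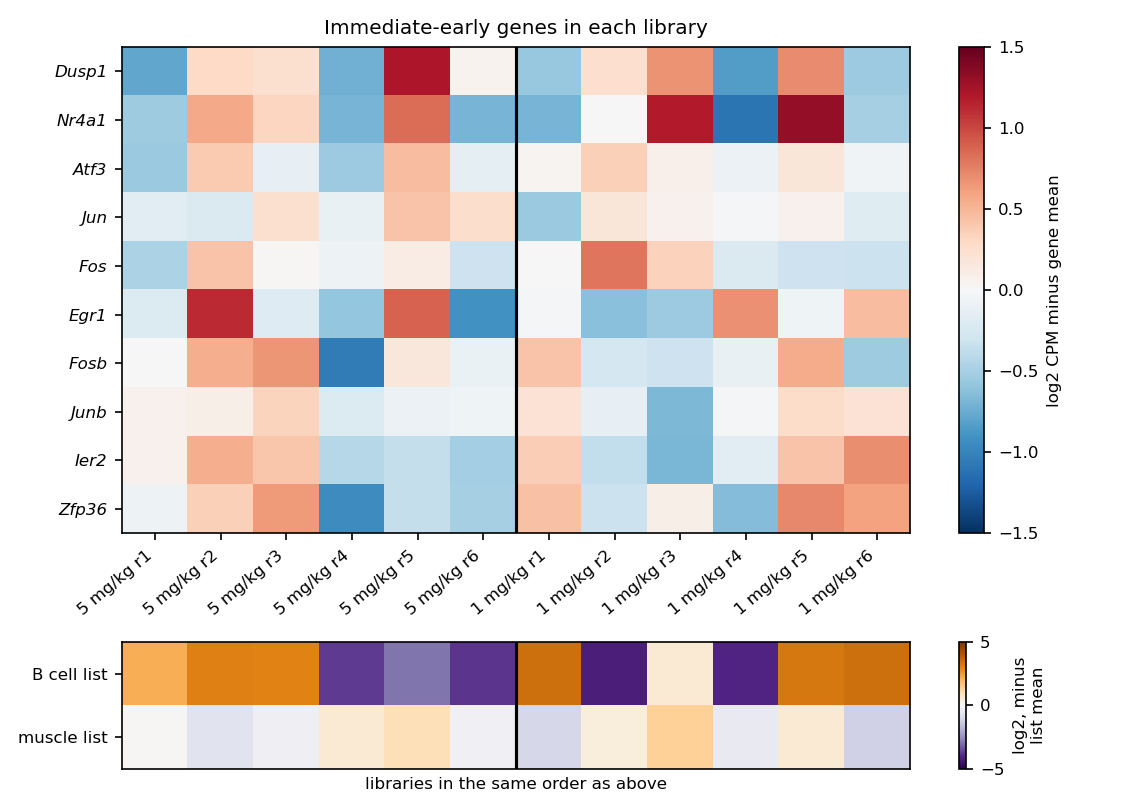
Log2 CPM of each gene minus its mean over the 12 libraries, 5 mg/kg left of the line and 1 mg/kg right of it (r is the replicate), above the levels of the B cell and muscle lists minus their means. Replicate 4 at 5 mg/kg is low for most genes, while the high libraries differ between the upper and the lower rows.

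The genes most like the 10 were taken as the 10 with the highest Pearson correlation with the mean log2 CPM of the members over the 12 libraries. Dusp6, a phosphatase specific for ERK, led with r = 0.89, and Ppp1r15a, which brings a phosphatase to the translation factor eIF2, was at 0.78. The others were Trmt112 (0.85), Wasf3 (0.84), Tsr3 (0.79), Rtp4 (0.79), Clta (0.79), Rnps1 (0.78), Rps6kb2 (0.78) and Rrs1 (0.76). Dusp6 had r = 0.86 with Zfp36 and -0.16 with Jun, so it too followed some members and not others.

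Of a wider list of 47 immediate-early genes 45 were tested, as Fosl1 and Npas4 did not pass the filter. It gave 0 genes past the threshold by edgeR, DESeq2 and limma-voom. At an unadjusted p under 0.05 there was 1 of 45 by each, beside 1.93% of all tested genes by edgeR. At 5 mg/kg 16 were higher and 29 lower, with a median log2 fold change of -0.14, beside 52.8% lower and a median of -0.018 over all tested genes. Scaling by library size alone gave 36 lower. With the B cell level as a covariate 28 were lower (median -0.092), with reads outside genes 27 (median -0.051) and with the muscle level 29 (median -0.14). Ccn2, a matrix-associated protein and target of YAP and SRF, had the only unadjusted p under 0.05 (0.0238, edgeR adjusted p = 0.943). Ccn2 ran from 7.07 to 16.6 CPM in 5 mg/kg libraries and from 12.1 to 53.9 CPM in 1 mg/kg libraries, with a log2 fold change of -0.92 ± 0.36. Replicate 2 at 1 mg/kg, the library with the most Fos, also had the most Ccn2. Without it the log2 fold change was -0.51 (unadjusted p = 0.0848), and without replicate 1 at 5 mg/kg it was -0.80 (unadjusted p = 0.0505), so that 0 of 45 genes had an unadjusted p under 0.05 in either case. Socs3, an inhibitor of cytokine signalling, was at -0.52 ± 0.33, Zfp36l1, a relative of Zfp36, at -0.24 ± 0.16, and Mcl1, an anti-apoptotic protein and the most abundant of the list, at -0.30 ± 0.25.

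The 24 kinases and transcription factors that act on immediate-early promoters had 10 higher and 14 lower, a median of -0.047 and 0 genes past the threshold by edgeR (0 at an unadjusted p under 0.05, and 0 of either kind by DESeq2 and limma-voom). By library size alone 21 were lower. Creb1, which binds CRE sites, was at -0.39 ± 0.20, the ETS factor Elk4 at -0.21 ± 0.16, the MAP kinase kinase Map2k2 at 0.18 ± 0.11 and Rps6ka4, the kinase MSK2, at 0.17 ± 0.12. The level of this list followed Ier2 at r = 0.89 and Zfp36 at r = 0.89 (rho = 0.83 and 0.78, permutation adjusted p = 0.0171 for both r and 0.0678 and 0.0719 for rho). Against the 95th percentiles over all tested genes given above, 0.88 and 0.90, these values are slightly above for Ier2 and below for Zfp36. The correlations were 0.86 and 0.90 without the 2 libraries farthest from the list's median. Within the groups r was 0.998 and 0.93 in 5 mg/kg libraries and 0.83 and 0.87 in 1 mg/kg libraries. The 5 mg/kg libraries divided here as they did in B cell markers. Replicates 1, 2 and 3, rich in those, had list levels of 4.57 to 4.65 log2 CPM, against 4.45 to 4.48 in replicates 4, 5 and 6. Ier2 was at 4.45 to 6.19 against 2.98 to 3.32 CPM, and Zfp36 at 21.7 to 35.5 against 11.9 to 17.8 CPM. The list was highest, at 4.70 and 4.71 log2 CPM, in replicates 1 and 6 at 1 mg/kg, which also had the 2 highest sums of B cell markers, 874 and 887 CPM.

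Heat shock genes, which keep proteins folded under stress, had 7 of 15 higher and 8 lower, beside 47.2% and 52.8% of all tested genes. Their median was -0.020, and 0 were past the threshold by edgeR, DESeq2 and limma-voom. Each tool gave 3 of 15 at an unadjusted p under 0.05, beside 1.93% of all tested genes by edgeR. By limma-voom 8 were higher with a median of 0.10, and by library size alone 10 were lower. Hsph1, Chordc1 and Dnaja1, which encode chaperones or their partners, were at -0.60 ± 0.19, -0.33 ± 0.12 and -0.36 ± 0.14, with unadjusted p of 0.00821, 0.0210 and 0.0267 (edgeR adjusted p = 0.943 for each). Hspa8, the constitutive HSP70, was at -0.30 ± 0.16. Replicates 4 and 5 at 5 mg/kg, at 5.28 and 5.43 log2 CPM, and replicate 3 at 1 mg/kg, at 5.30, had the highest heat shock levels, whereas the means of the 10 immediate-early genes in these libraries were 2.42, 3.28 and 2.97 log2 CPM.

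Of 14 glucocorticoid-responsive genes, 4 of them also in the wider early list, 6 were higher and 8 lower, with a median of -0.088 and 0 past the threshold or at an unadjusted p under 0.05 by edgeR, DESeq2 and limma-voom. By limma-voom 7 were higher and 7 lower. The metallothionein Mt1 was at 0.42 ± 0.29, Errfi1, an inhibitor of EGF receptors, at -0.45 ± 0.35, Tsc22d3, also called GILZ, at -0.44 ± 0.37 and Pdk4, a kinase of pyruvate dehydrogenase, at 0.17 ± 0.52. Jun had r = 0.74 and rho = 0.80 with the level of this list, which missed the threshold (permutation adjusted p = 0.0934 and 0.0678), with r = 0.83 without the 2 libraries farthest from the list's median and 0.89 in 5 mg/kg libraries and 0.73 in 1 mg/kg libraries. The 15 hypoxia genes had 10 higher and 5 lower, a median of 0.062 and 0 past the threshold or at an unadjusted p under 0.05 by the same 3 tools, and 9 were lower with scaling by library size alone. Hk2, which traps glucose in cells, was at 0.51 ± 0.32, Pdk1, a kinase of pyruvate dehydrogenase, at 0.33 ± 0.24, and Pfkfb3, a driver of glycolysis, at 0.18 ± 0.17.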

How the data were processed

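RNA was measured in 12 mouse mammary gland libraries, 6 at 5 mg/kg and 6 at 1 mg/kg folic acid, prepared with the TruSeq RNA v2 kit, per the labels' protocols. What the authors deposited were read counts by gene, unnormalized, and STAR, HTSeq 0.6.1 and mm10 are named in the submitters' processing notes. Not given in the sources used here are the STAR version, the annotation and the strand setting. The 5 tally lines of each file held 16.7% to 35.7% of reads and stayed out of library sizes and tests. Multiply aligned reads among them made up 8.30% to 10.5%. Symbols were matched for 55141 IDs, and coordinates are those of GENCODE vM21 on GRCm38.

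Genes were tested in R 4.3.3 by edgeR 4.0.16 (filterByExpr, TMM scaling, then robust quasi-likelihood fits), 5 mg/kg against 1 mg/kg over all 12 libraries without covariates. Benjamini-Hochberg adjustment ran over 18647 genes. The fit was tested on simulated data. Alternatives used DESeq2 1.42.0, limma 3.58.1 (voom), other scalings and filters, covariates, and each library left out. Correlations used log2 CPM with a prior count of 2 and 100000 permutations. A measure was called clustered where a gap took over 0.35 of its range with at least 3 libraries on each side, a limit set after the data were seen. Pairs of replicates were checked for copies with a chi-square of their counts, and the lowest of 30 pairs was 41.7 per degree of freedom, far above sampling noise.

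The 10 members, the gene lists and 13 cell type marker lists (0 of 121 tested markers passed) were chosen with earlier results of these data known. Named genes were the 10 members, the 3 genes of smallest p plus the most abundant gene in each described pathway list, and the 10 genes most like the members. Replicates were numbered as their records are ordered.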

Additional observations from a re-analysis of the deposited data

How the results depend on the processing

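No paired analysis was possible because replicates were numbered as their records are ordered and the labels pair no samples. With DESeq2, limma-voom, 3 other scalings or without mitochondrial rRNA, 2 other filters, 3 covariates, or any 1 of the 12 libraries left out, 0 genes and 0 of the 10 members passed. Among 229 alternative log2 fold changes of the members 212 kept their sign, and the smallest unadjusted p was 0.128. Several of the values that turned were as large as the reported ones. Scaling by library size alone turned Fosb to -0.0011, Junb to -0.15, Egr1 to -0.043 and Dusp1 to -0.017, upper quartile scaling Junb to -0.00067, and reads outside genes as a covariate Ier2 to 0.086, Dusp1 to -0.0078 and Pdk4 to -0.26. Leaving out replicates, Fos ranged from -0.24 to 0.070, Fosb from -0.015 to 0.28, Junb from -0.080 to 0.077, Egr1 from -0.12 to 0.32, Ier2 from -0.24 to 0.040, Dusp1 from -0.17 to 0.30 and Nr4a1 from -0.42 to 0.083. Among these, Fosb and Junb turned without replicate 3 at 5 mg/kg (-0.015 and -0.055), Junb also without replicate 3 at 1 mg/kg (-0.080), Egr1 without replicate 2 or 5 at 5 mg/kg (-0.12 and -0.00014), and Pdk4, from -0.12 to 0.68, without replicate 5 at 5 mg/kg (-0.12) or replicate 6 at 1 mg/kg (-0.0020). Ccn2 ranged from -1.06 to -0.51, the end nearest 0 without replicate 2 at 1 mg/kg.

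The median correlation of 0.29 over the 45 pairs ranged from 0.18 to 0.36 with each library left out, the lowest without replicate 4 at 5 mg/kg. It was 0.50 within the 5 mg/kg group, where 41 pairs were positive, and 0.16 within the 1 mg/kg group, where 23 were. The difference between the groups was not tested. Library size alone gave 0.54, with 45 positive pairs and 10 past the threshold, but there the correlation of a member with all tested genes also had a median of 0.090 to 0.73. RLE scaling called 4 pairs, mitochondrial rRNA left out 3, residuals after the B cell level 1, after the muscle level 5 and after both levels 4, the last 2 and the rRNA setting chosen after seeing the data. Without replicate 3 or replicate 6 at 1 mg/kg 4 pairs passed. Dusp1 with Nr4a1 passed in each setting over 11 or 12 libraries. Junb with Ier2 did not after the B cell or muscle level. Within a group of 6 no pair passed after adjustment (smallest adjusted p 0.0625 by exact permutation), but a lone pair at the smallest exact p of 6 libraries, 0.00139, could not have passed, so this says nothing about stability. Precision was limited by the spread between pads, and for Fosb also by 18 to 82 reads a library.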
